A study of Homo sapiens with 12 samples.

Results

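The core autophagy machinery and its cargo receptors were described in oral squamous cell carcinoma (OSCC) cells cultured with or without rapamycin. The set held 40 genes, listed by name along the steps of autophagosome formation. Each of the 40 symbols matched 1 of the 58302 gene identifiers in the count table. The set was chosen with earlier results of these data known, so member shares beside those of all genes are description only. It comprised 5 genes of the ULK initiation complex, 6 of the class III PI3K complex, 5 of phagophore membrane supply, 10 of the ATG12 and ATG8 conjugation systems, 5 of the ATG8 family, 5 cargo receptors and 4 genes of transport and fusion. RNA-seq comprised 2 libraries of cells given 100 nM rapamycin (numbers 1 and 2) and 2 control libraries (numbers 1 and 2). MeRIP-seq, in which fragments carrying N6-methyladenosine (m6A) are pulled down with an antibody and set against the input RNA, comprised 1 immunoprecipitated and 1 input library for each of HSC3 and CAL33, given 100 nM rapamycin or left as control and harvested on day 3. The day was not given for the RNA-seq libraries. HSC3 and CAL33 are established lines from tongue squamous cell carcinoma, so each stands for the tumour cells of 1 source, without stroma. The labels name no genetic change in any group used here.

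The labels disagreed on the cell line. Those of the RNA-seq libraries gave HSC3 for both rapamycin libraries and CAL33 for both controls, whereas in MeRIP-seq number 1 was HSC3 and number 2 was CAL33 under either treatment. Taken as written, the RNA-seq labels leave treatment and cell line impossible to tell apart. Of the 8 squamous markers, *KRT17*, *TP63*, *KRT5*, *KRT6A* and *KRT14* were higher in number 2 than in number 1 under either treatment, *CDH1* and *EPCAM* were higher in number 1, and *SFN* was higher in number 1 with rapamycin and in number 2 in the controls. *KRT17* had 96 and 106 counts in the rapamycin and control libraries numbered 1, against 38627 and 31867 in those numbered 2, and *TP63* had 257 and 426 against 6437 and 7870. *KRT5* and *KRT6A* also differed between the treatments, with 116 and 5956 counts of *KRT5* with rapamycin against 740 and 40305 in the controls, and 8 and 98 counts of *KRT6A* against 95 and 8849. *CDH1* and *EPCAM* had at least 2870 counts in every library, and *KRT14* was at 0 in both libraries numbered 1. The 8 squamous markers summed to 904 and 3325 CPM (counts scaled by library size) in the rapamycin libraries and to 1082 and 4764 CPM in the controls. The sum of 5 fibroblast markers ranged from 27.7 to 48.0 CPM with rapamycin and from 8.75 to 35.8 CPM in the controls, with *COL1A2* and *DCN* at 0, and the immune marker *PTPRC* was at 0 in every library. The 3 endothelial markers followed the number, at 1.46 and 44.1 CPM with rapamycin and 1.71 and 30.7 CPM in the controls. The part of these markers in the results was not tested. Totals were 18492273 and 18763045 counts with rapamycin and 21653290 and 23763098 in the controls. The labels do not say that the libraries came from separate cultures. Without the block, the p-values measure mainly the spread between the numbers within a group, where the markers above differed. With the block, a gene offers a single comparison of the change between the numbered pairs, each with 1 library per treatment. The spread is then taken largely from all genes together, not from the gene's own agreement between pairs. *BECN1*, with log2 differences of 0.306 and 0.303 in the pairs, had an SE of 0.25. *GABARAPL1*, with 1.32 and 2.58, had an SE of 0.31. Neither set of p-values measures the spread between cultures of the same cells, and part of the spread may be technical.

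Autophagy encloses cytoplasm in a double membrane and delivers it to the lysosome. Under nutrient supply the kinase mTORC1 holds the ULK1 complex inactive, and rapamycin inhibits mTORC1. Once active, the ULK1 complex recruits a lipid kinase that marks the forming membrane with phosphatidylinositol 3-phosphate, ATG9A and ATG2 proteins bring in lipid, and a pair of ubiquitin-like conjugation systems attach ATG8 proteins such as LC3B to the membrane, where cargo receptors dock. Much of this control acts on proteins, which were not measured here. RNA levels in bulk cultures also cannot tell fewer cells of a kind from less RNA per cell.

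With rapamycin, 6 members were higher and 0 lower once the replicate number was a term of the model (the blocked fit): *ULK1*, *WIPI1*, *GABARAPL1*, *NBR1*, *OPTN* and *CALCOCO2*, by 2.07-fold to 4.1-fold. They fall in 4 of the 7 steps, and 3 of them are cargo receptors. These calls rest on the block. Without it, the quasi-likelihood test of edgeR called 0 of the 39 members tested and 0% of the 15826 genes tested, each member having an adjusted p of 0.9997. At an unadjusted p under 0.05 that fit held 5 members (12.8%) and 2.82% of all genes. DESeq2 without the block called 2 members, *ULK1* (adjusted p = 0.0178) and *GABARAPL1* (adjusted p = 0.0274), and 42 genes in all. With the block, the 6 higher members were 15.4% of the 39, beside 4.65% of all genes that were higher, and 0 members were lower, beside 3.50% of all genes (a split of 736 higher to 554 lower, which became 805 to 360 with upper-quartile normalization). At an unadjusted p under 0.05 the blocked fit held 12 members higher and 3 lower of the 39, beside 2077 genes higher and 1659 lower of all 15826.

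The members' median log2 fold change in the blocked fit was 0.30, beside 0.053 over all genes tested. Within the numbered pairs, 21 members (53.8%) were higher with rapamycin in both pairs, beside 34.6% of all genes, and 9 (23.1%) were lower in both, beside 31.8% of all genes. In the other 9 the pairs went opposite ways. For 16 members (41.0%) both rapamycin libraries lay above both controls, beside 15.0% of all genes. For 3 members (7.69%) they lay below, beside 16.5% of all genes, and for 20 the groups overlapped. *MAP1LC3A*, which encodes LC3A, was the member not tested, at 0 counts in both rapamycin libraries and at 0 and 1 in the controls, under the limit of 3 counts (0.126 to 0.162 CPM) that a count of 0 allows.

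**Figure D1:**
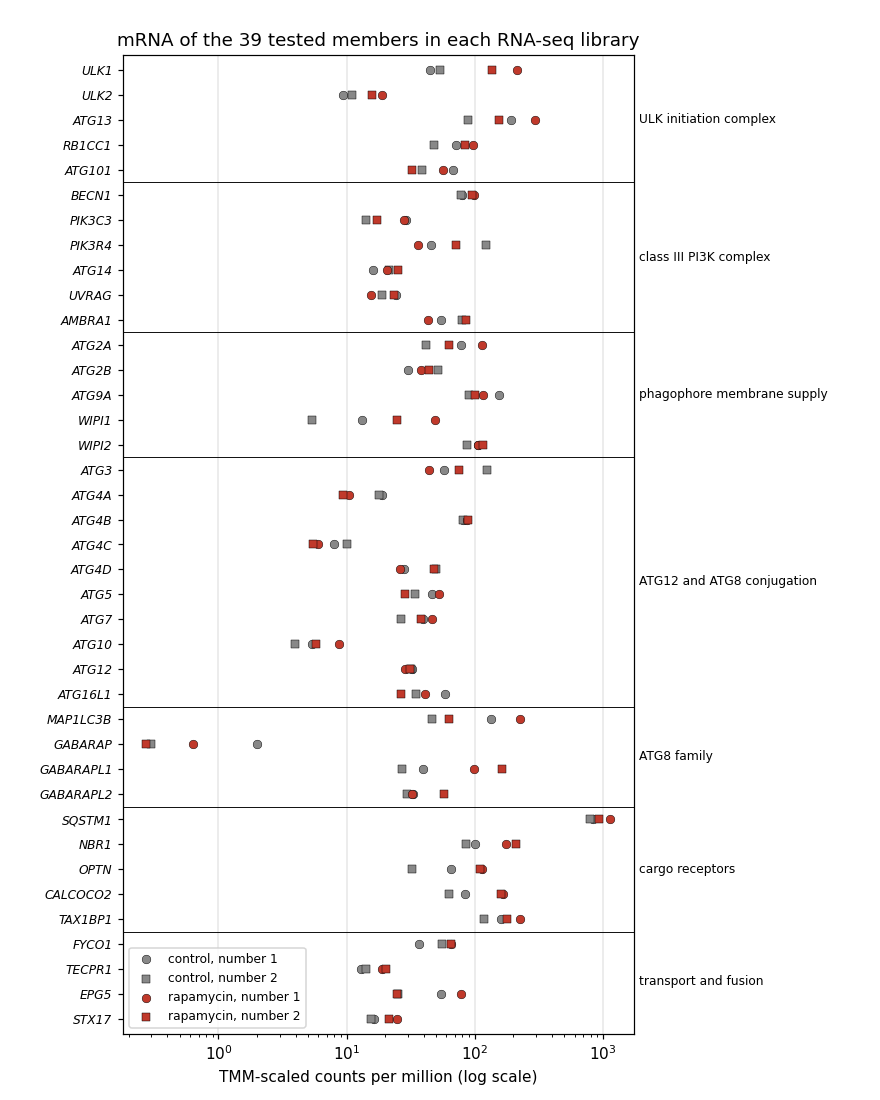
Level of the 39 tested members in each RNA-seq library, in TMM-scaled CPM on a log axis, grouped by autophagy step, with 1 point per library. The rapamycin points of all 5 cargo receptors lie above both control points, whereas in the conjugation systems the groups overlap for 5 of 10 genes. Over all genes tested, 15.0% lay above in this way and the groups overlapped for 68.5%.

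**Figure D2:**
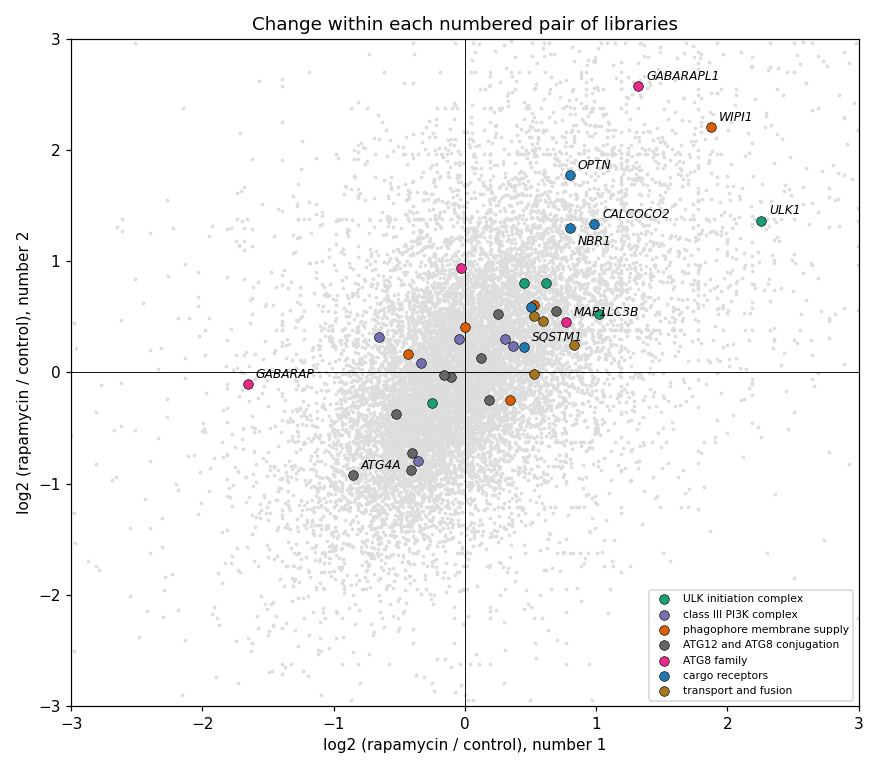
Difference in log2 CPM, rapamycin minus control, within number 1 (horizontal axis) and within number 2 (vertical axis), for the members (coloured) over all genes tested (grey). The axes stop at 3 and -3, which leaves 283 genes outside, and 1010 genes with a count of 0 in a library are not drawn. The 6 members that passed in the blocked fit lie at the upper right, from 0.80 to 2.26 in number 1 and from 1.30 to 2.58 in number 2.

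Promoters of 4 of the 6 members are printed because these genes rose together in the blocked fit. The sequences are the 250 bases before the start site in RefSeq on GRCh38.p14, 5′ to 3′ on the gene's strand, with GGGCGG, the GC box, and its reverse complement CCGCCC in capitals, and in *CALCOCO2* also GTAAACA, a forkhead element. These 4 promoters and the searches for the GC box, the forkhead element and the longer E-box were chosen after values were seen.
ULK1, chr12:131894372-131894621, plus strand: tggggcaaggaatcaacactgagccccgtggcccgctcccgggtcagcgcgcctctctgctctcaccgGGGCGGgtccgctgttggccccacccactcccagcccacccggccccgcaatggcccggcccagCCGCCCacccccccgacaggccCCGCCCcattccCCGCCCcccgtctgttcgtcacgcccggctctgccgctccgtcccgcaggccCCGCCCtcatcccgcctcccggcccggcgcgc
WIPI1, chr17:68457497-68457746, minus strand: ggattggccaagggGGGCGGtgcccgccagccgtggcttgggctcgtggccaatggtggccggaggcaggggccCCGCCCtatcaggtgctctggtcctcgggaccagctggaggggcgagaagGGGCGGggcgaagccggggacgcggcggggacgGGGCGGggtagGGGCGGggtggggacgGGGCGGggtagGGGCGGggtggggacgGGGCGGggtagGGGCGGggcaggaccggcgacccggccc
GABARAPL1, chr12:10212627-10212876, plus strand: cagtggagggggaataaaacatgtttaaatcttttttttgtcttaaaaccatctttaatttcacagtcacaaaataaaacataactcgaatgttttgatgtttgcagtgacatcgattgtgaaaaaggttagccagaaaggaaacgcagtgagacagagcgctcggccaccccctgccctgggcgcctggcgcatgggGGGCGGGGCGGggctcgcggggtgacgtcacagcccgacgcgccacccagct
CALCOCO2, chr17:48830785-48831034, plus strand: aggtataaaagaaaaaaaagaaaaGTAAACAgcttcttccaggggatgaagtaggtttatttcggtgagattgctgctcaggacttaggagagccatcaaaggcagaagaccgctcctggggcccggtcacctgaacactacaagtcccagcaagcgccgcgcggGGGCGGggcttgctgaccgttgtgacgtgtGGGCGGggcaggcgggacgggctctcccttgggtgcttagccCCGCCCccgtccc

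A promoter was found for 34 members, and each motif was searched on both strands of the same 250 bases. GGGCGG was in the promoters of all 6 members that passed in the blocked fit, with 9 copies in *WIPI1*, 5 in *ULK1*, 3 in *CALCOCO2* and 2 overlapping in *GABARAPL1*. It was also in 25 of the 34 members (73.5%) and in 42.6% of the 35116 promoters searched. The measures differ for each motif: a member counted if any promoter under its symbol held it. The share over all promoters counts each promoter, also those of genes not tested here. GTAAACA was in *CALCOCO2* alone among the members, and in 2.98% of all promoters. CACGTG, the E-box bound by TFEB and TFE3, lay in 0 of the 6 and in 2 of the 34 members, *ATG3* and *ATG14*, beside 6.34% of all promoters. Neither of those passed the test. The longer E-box TCACGTGA, which contains CACGTG and was in 0.854% of promoters, and the CHOP-ATF4 element TGATGCAA, in 0.772%, were in 0 of the 34. A match or its lack describes these letters only. The 30 bases around each CACGTG are shown with the E-box in capitals.
ATG3, chr3:112561963-112561992, minus strand: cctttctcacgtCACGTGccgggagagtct
ATG14, chr14:55411834-55411863, minus strand: aaaacaaaatccCACGTGactggctctcct

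The ULK complex, the kinase complex that starts autophagy, had 1 member past the threshold in the blocked fit. *ULK1*, its catalytic subunit, was at 213 and 137 CPM in the rapamycin libraries numbered 1 and 2, and at 44.5 and 53.1 CPM in the controls. Both rapamycin libraries lay above both controls. It was 3.51-fold higher in the blocked fit (log2 fold change 1.81 ± 0.28 SE, edgeR adjusted p = 0.000485), with a log2 difference of 2.26 within number 1 and 1.37 within number 2. *ULK2*, its homologue, was higher in both pairs (log2 fold change 0.78), as were the scaffold *RB1CC1* (0.62) and the adaptor *ATG13* (0.71), without passing the test. *ATG13* had an adjusted p of 0.0832 in edgeR with the block and of 0.0491 in DESeq2 with the block. *ATG101*, which stabilises ATG13, had a log2 fold change of -0.26 and was lower in both pairs. Over all genes tested, 34.6% were higher in both pairs and 31.8% were lower in both. The median of the 5 was 0.71.

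The class III PI3K complex makes the phosphatidylinositol 3-phosphate of the growing membrane, and 0 of its 6 members passed the test with or without the block. At an unadjusted p under 0.05, edgeR held 0 of the 6 without the block and 1, *PIK3R4*, with it, and DESeq2 called 0. In the blocked fit 3736 of all 15826 genes tested were under that cut. The log2 fold changes in the blocked fit ran from -0.58 for *PIK3R4*, the regulatory subunit VPS15, to 0.30 for *BECN1*, the scaffold Beclin 1. *PIK3R4* was at 35.8 and 70.9 CPM with rapamycin and 45.8 and 123 CPM in the controls. The difference between the numbers exceeded that between treatments, and the groups overlapped. The lipid kinase *PIK3C3* (0.13) and *ATG14* (0.30), which directs the complex to the autophagosome, were within 1 SE of 0, as were *UVRAG* (-0.17) and *AMBRA1* (-0.12). *BECN1* alone of the 6 had both rapamycin libraries above both controls, at 98.4 and 95.5 against 79.6 and 77.4 CPM. That is 16.7% of the step, near the 15.0% of all genes tested that lay above in this way.

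Of the 5 genes of phagophore membrane supply, only *WIPI1* passed in the blocked fit. WIPI1 is a phosphatidylinositol 3-phosphate binding protein of early autophagic membranes. *WIPI1* was at 48.7 and 24.7 CPM with rapamycin and at 13.3 and 5.37 CPM in the controls. The groups did not overlap, and number 1 was the higher library in either group. The gene was 4.1-fold higher in the blocked fit (log2 fold change 2.04 ± 0.33 SE, edgeR adjusted p = 0.000774), by 1.88 within number 1 and 2.20 within number 2. Its span on chromosome 17 is shared with *ARSG* and *PRKAR1A*, and whether reads were counted by strand was not given in the sources used here. The largest overlap, 36216 bp, is the whole span of *WIPI1*. Its relative *WIPI2*, which recruits ATG16L1, had a log2 fold change of 0.20, the lipid transfer proteins *ATG2A* and *ATG2B* of 0.57 and 0.043, and the scramblase *ATG9A* of -0.13. The groups overlapped for these 4, and for 68.5% of all genes tested.

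The conjugation systems, which process ATG8 proteins and attach them to lipid, had 0 of 10 members past the threshold in either edgeR fit and 0 in DESeq2. At an unadjusted p under 0.05, edgeR held 0 without the block and 2, *ATG3* and *ATG4A*, both lower, with it. In the blocked fit 1659 of all 15826 genes tested were lower at that cut. The 10 log2 fold changes of the blocked fit had a median of -0.082, the lowest of the steps. Lower with rapamycin in both pairs were 6 of the 10 genes, beside 31.8% of all genes tested. Members whose groups did not overlap downwards were the proteases *ATG4A* and *ATG4C*, which cleave ATG8 precursors, and the ubiquitin-like modifier *ATG12*. No other step held such a gene, and 16.5% of all genes tested lay below in this way. *ATG4A* was at 10.4 and 9.44 CPM with rapamycin and 18.8 and 17.9 CPM in the controls (log2 fold change -0.89 ± 0.36 SE, edgeR adjusted p = 0.131 with the block). *ATG4C* was at 5.99 and 5.43 against 7.99 and 10.01 CPM (-0.65), and *ATG12* at 28.7 and 31.3 against 32.1 and 31.9 CPM (-0.094). For *ATG12* the gap was small beside its SE of 0.30. Above both controls lay the protease *ATG4B* (0.13) and the E2-like enzyme *ATG10* (0.62), 2 of the 10, beside 15.0% of all genes tested. The other 5 overlapped between groups, with values of 0.39 for the E1-like enzyme *ATG7*, -0.034 for *ATG5*, -0.071 for the protease *ATG4D*, -0.45 for *ATG16L1*, which sets the site of lipidation, and -0.57 for the E2-like enzyme *ATG3*.

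In the ATG8 family, the proteins coupled to the membrane, *GABARAPL1* passed in the blocked fit. It was at 99.2 and 162 CPM with rapamycin and at 39.7 and 27.2 CPM in the controls. Number 2 was the higher of the rapamycin libraries and the lower of the controls, and the groups did not overlap. *GABARAPL1* was 3.86-fold higher in the blocked fit (log2 fold change 1.95 ± 0.31 SE, edgeR adjusted p = 0.00130), by 1.32 within number 1 and 2.58 within number 2. Its value is uncertain in that reads may be split with its near-identical copy *GABARAPL3*, and it shares 1419 bp with the antisense gene *GABARAPL1-AS1*.

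*MAP1LC3B* encodes LC3B, the protein read as LC3-II on blots of autophagy. It was at 226 and 63.5 CPM with rapamycin and at 133 and 46.4 CPM in the controls. It was higher within both pairs, while the rapamycin library numbered 2 lay below the control numbered 1, and without the rapamycin library numbered 1 the unblocked log2 fold change turned from 0.69 to -0.52. The log2 fold change was 0.61 ± 0.25 SE, with an edgeR adjusted p of 0.138 with the block, and reads may be split with its near-identical copy *MAP1LC3B2*. *GABARAPL2* had a log2 fold change of 0.46, from -0.031 within number 1 and 0.94 within number 2. *GABARAP* had 12 and 5 counts with rapamycin and 43 and 7 in the controls, too few to place it, and its span shares 821 bp with *PHF23*.

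The cargo receptors link ubiquitinated cargo to ATG8 proteins, and all 5 were higher with rapamycin in both pairs with no overlap between groups. Over all genes tested, 34.6% were higher in both pairs and 15.0% lay above the controls without overlap. Of the 5, 3 passed the test in the blocked fit, and their median log2 fold change of 1.05 was the highest of the steps. *NBR1*, a receptor for protein aggregates and peroxisomes, was at 175 and 210 CPM with rapamycin and at 100.0 and 85.4 CPM in the controls. It was 2.07-fold higher (log2 fold change 1.05 ± 0.26 SE, edgeR adjusted p = 0.0136 with the block), by 0.80 within number 1 and 1.30 within number 2. *CALCOCO2* encodes NDP52, a receptor for bacteria and damaged mitochondria. It was at 166 and 159 CPM against 83.8 and 63.1 CPM in the controls. It was 2.23-fold higher (log2 fold change 1.16 ± 0.26 SE, edgeR adjusted p = 0.00677 with the block), by 0.99 within number 1 and 1.33 within number 2. For both genes the gap between groups exceeded the gap between the numbers.

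*OPTN*, optineurin, a receptor of mitophagy, was at 114 and 110 CPM with rapamycin and at 65.2 and 32.2 CPM in the controls. The rapamycin libraries were close together and the controls differed by number. It was 2.44-fold higher (log2 fold change 1.29 ± 0.28 SE, edgeR adjusted p = 0.00700 with the block), by 0.80 within number 1 and 1.77 within number 2. *SQSTM1* encodes p62, the receptor whose protein is consumed by autophagy. It was at 1142 and 934 CPM with rapamycin and at 834 and 795 CPM in the controls. The groups did not overlap, but the difference was small: the log2 fold change was 0.34 ± 0.26 SE, with an edgeR adjusted p of 0.447 with the block. *TAX1BP1* had a log2 fold change of 0.55 and did not pass (adjusted p = 0.190 in edgeR with the block). Spans shared with other genes were 803 bp for *SQSTM1* and 556 bp for *NBR1*, and none for *OPTN*, *CALCOCO2* and *ULK1*.

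The 4 genes of transport and fusion did not pass the test in edgeR with or without the block. At an unadjusted p under 0.05, 0 of them were past in either fit, and DESeq2 called 0. The kinesin adaptor *FYCO1*, which moves autophagosomes along microtubules (log2 fold change 0.54), the tether *TECPR1* (0.52) and the SNARE *STX17* (0.53), which drives fusion with the lysosome, were higher in both pairs with no overlap between groups. Of all genes tested, 34.6% were higher in both pairs and 15.0% lay above without overlap. *EPG5*, a tether of autophagosome and lysosome, was at 78.04 and 24.9 CPM with rapamycin and 54.1 and 25.1 CPM in the controls (0.26). Its libraries numbered 2 were alike.

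A further list of 36 autophagy genes outside the set was read from the same fit, of which 35 matched 1 identifier and 34 were tested. This list, too, was chosen with earlier results of these data known. Without the block edgeR called 0 of the 34, 2 being under an unadjusted p of 0.05, and DESeq2 called 0. With the block, 6 (17.6%) were higher, beside 4.65% of all genes tested, and 1 (2.94%) was lower, beside 3.50%. The median log2 fold change of the 34 was 0.059, near the 0.053 of all genes. Higher were *DDIT4* (2.69), which encodes the mTORC1 inhibitor REDD1, *CALCOCO1* (1.99), a receptor for the endoplasmic reticulum and Golgi, *TP53INP1* (1.79) and *TP53INP2* (1.15), which bind ATG8 proteins, *WDR45* (1.27), a relative of the WIPI proteins, and the mitophagy receptor *BNIP3L* (0.88). Its paralogue *BNIP3* was lower, at 27.0 and 32.6 CPM with rapamycin and 56.2 and 72.9 CPM in the controls (log2 fold change -1.11 ± 0.28 SE, edgeR adjusted p = 0.0154 with the block). *CALCOCO1* was at 112 and 83.5 CPM against 42.1 and 13.9 CPM (adjusted p = 0.000781 in edgeR with the block). *DDIT4* was at 272 and 1465 CPM against 27.3 and 348 CPM, so that its groups overlapped across the numbers while both pairs rose. The same held for *TP53INP1*, at 3.73 and 26.2 against 1.39 and 6.17 CPM. It also held for *TP53INP2*, at 60.1 and 15.2 against 39.3 and 4.52 CPM.

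For m6A, 1 peak list was given for each line and treatment, without replicates, so the lists are described with no test. A member was counted when a peak carried its gene identifier. Members with a peak numbered 7 of 40 in the HSC3 control (17.5%, 95% Wilson interval 8.75 to 31.9%), 15 in HSC3 with rapamycin (37.5%, 24.2 to 53.0%), 9 in the CAL33 control (22.5%, 12.3 to 37.5%) and 8 in CAL33 with rapamycin (20.0%, 10.5 to 34.8%). The same shares over all genes tested were 17.6% and 17.5% in HSC3 and 16.1% and 14.2% in CAL33, control first. The HSC3 rapamycin list thus held more members than the other 3 lists. Its interval lay above the 17.5% of all genes tested, and the other 3 intervals included the share of their list. The 4 lists cover the same 40 genes, so overlap between intervals does not test a difference between lists. As the set was chosen with earlier results known, these shares are description only. Intervals cover counting error only, and the depth of the m6A libraries is unknown.

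The 4 lists held 50 member peaks in 20 members. Of these members 8 were in 1 list, 6 in 2, 5 in 3 and 1 in all 4. Members with a peak had a median mean level of 52.3 CPM (n = 20) and those tested without one of 40.3 CPM (n = 19). Their median log2 fold changes in the blocked fit were 0.085 and 0.53. The same split was not made over all genes, so whether peaks and change go together was not tested. Of the 6 members that passed in the blocked fit, *ULK1* alone carried a peak in any list. Single lists held a peak for 14.2% to 17.6% of all genes tested, and the share in any list was not computed. In HSC3, 4 members had a peak under both treatments (*AMBRA1*, *ATG4A*, *ATG4B*, *UVRAG*), 11 with rapamycin alone and 3 in the control alone. In CAL33, 6 members had one under both (*AMBRA1*, *ATG101*, *PIK3R4*, *RB1CC1*, *ULK1*, *WIPI2*), 2 with rapamycin alone and 3 in the control alone. Peaks annotated to the 3′ untranslated region were 4 of 8 and 16 of 22 in HSC3 and 6 of 11 and 3 of 9 in CAL33, control first, the rest being in coding sequence. Over all peaks the 3′ untranslated share was 35.4% to 37.2%.

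**Figure D3:**
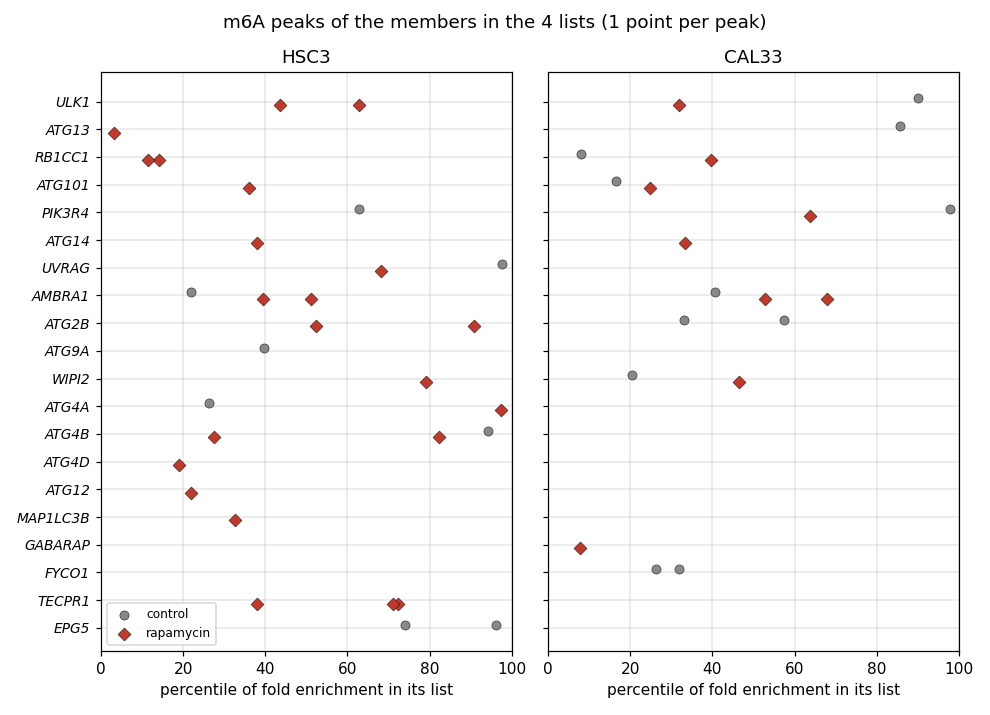
Percentile of fold enrichment within its own list (0 to 100) for each peak of the 20 members with a peak, in HSC3 and in CAL33, control and rapamycin. Member peaks span almost the whole scale, from the 3.11 to the 97.9 percentile, and HSC3 with rapamycin holds 22 of the 50, more than any other list.

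Fold enrichment, the ratio of immunoprecipitated RNA to input, was read as its percentile within the list because the lists were made separately. *ULK1* carried 3′ untranslated peaks in 3 lists, and the peak starting at chr12:131921849 in hg38 was the same start in all 3. This peak reached a fold enrichment of 238 (90.1 percentile) in the CAL33 control, 17.9 (31.8 percentile) in CAL33 with rapamycin and 51.9 (62.9 percentile) in HSC3 with rapamycin. HSC3 with rapamycin had a further peak at chr12:131921460-131921670, and the HSC3 control listed none. The enrichment in CAL33 was thus lower with rapamycin, and in HSC3 the gene was listed with rapamycin alone, so the lines did not show 1 direction.

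*PIK3R4* had a coding peak with the same limits in both controls, chr3:130744522-130744761 in hg38, with a fold enrichment of 60.1 (62.9 percentile) in HSC3 and 584 (97.9 percentile) in CAL33. With rapamycin the CAL33 peak ran from the same start to 130745000 with a fold enrichment of 58.9 (63.7 percentile), and HSC3 listed none. *AMBRA1*, the member in all 4 lists, had a peak with the same limits in both controls at chr11:46397283-46397493, annotated to the 3′ untranslated region, with a fold enrichment of 11.2 (21.8 percentile) in HSC3 and 29.8 (40.6 percentile) in CAL33. With rapamycin the peaks nearby were annotated to coding sequence, at chr11:46397343-46397583 in HSC3 (fold enrichment 23.2) and chr11:46397523-46397823 in CAL33 (40.2). Each rapamycin list also held a coding peak far upstream, at chr11:46542760-46542970 in HSC3 and chr11:46542371-46542611 in CAL33, where neither control list had one.

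The other members in 3 lists were *RB1CC1*, *ATG101* and *WIPI2*. *RB1CC1* had coding peaks of low rank by fold enrichment, between the 7.95 and the 39.6 percentile, in HSC3 with rapamycin and in both CAL33 lists. Their false discovery rates were small, from 1e-109 in CAL33 with rapamycin to 2.14e-06 in the CAL33 control. *ATG101* shared a coding peak start, chr12:52076986, between HSC3 with rapamycin (fold enrichment 20.5) and the CAL33 control (10.6), and its peak in CAL33 with rapamycin lay elsewhere with a false discovery rate of 0.5. *WIPI2* had a 3′ untranslated peak in CAL33 at a fold enrichment of 12.8 in the control and 30.4 with rapamycin, and in HSC3 with rapamycin a further one at chr7:5233377-5233676 (95.7). Besides *ATG101*, the false discovery rate was above 0.05 for *ATG4D* in HSC3 with rapamycin and for 1 peak of *FYCO1* in the CAL33 control. *GABARAP* was listed in CAL33 with rapamycin with a fold enrichment of 5.36, although it had 5 counts in the rapamycin RNA-seq library numbered 2.

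Peaks of the 2 treatments were then compared by position. Of the 22 rapamycin peaks in HSC3, 4 (18.2%, 95% Wilson interval 7.31 to 38.5%) overlapped a control peak by at least 1 bp over exonic blocks, beside 28.4% of all rapamycin peaks in that line. In CAL33 it was 3 of 9 (33.3%, 12.1 to 64.6%), beside 29.9% of all. Both member shares have intervals that include the share of all peaks. No member overlapped in both lines. Among the 7 overlapping pairs the percentile was higher with rapamycin for *ATG4A*, *AMBRA1* and *WIPI2* and lower for *ATG4B*, *UVRAG*, *PIK3R4* and *ULK1*. *ATG4A* moved furthest up in HSC3, from a fold enrichment of 11.4 (26.4 percentile) to 342 (97.5 percentile), at chrX:108153745-108153954 in the control. *ULK1* moved furthest down in CAL33, as given above. *UVRAG* went from 524 to 62.9 and *ATG4B* from 314 to 107 in HSC3. With 1 list per line and treatment, none of these differences has a replicate check.

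**Figure D4:**
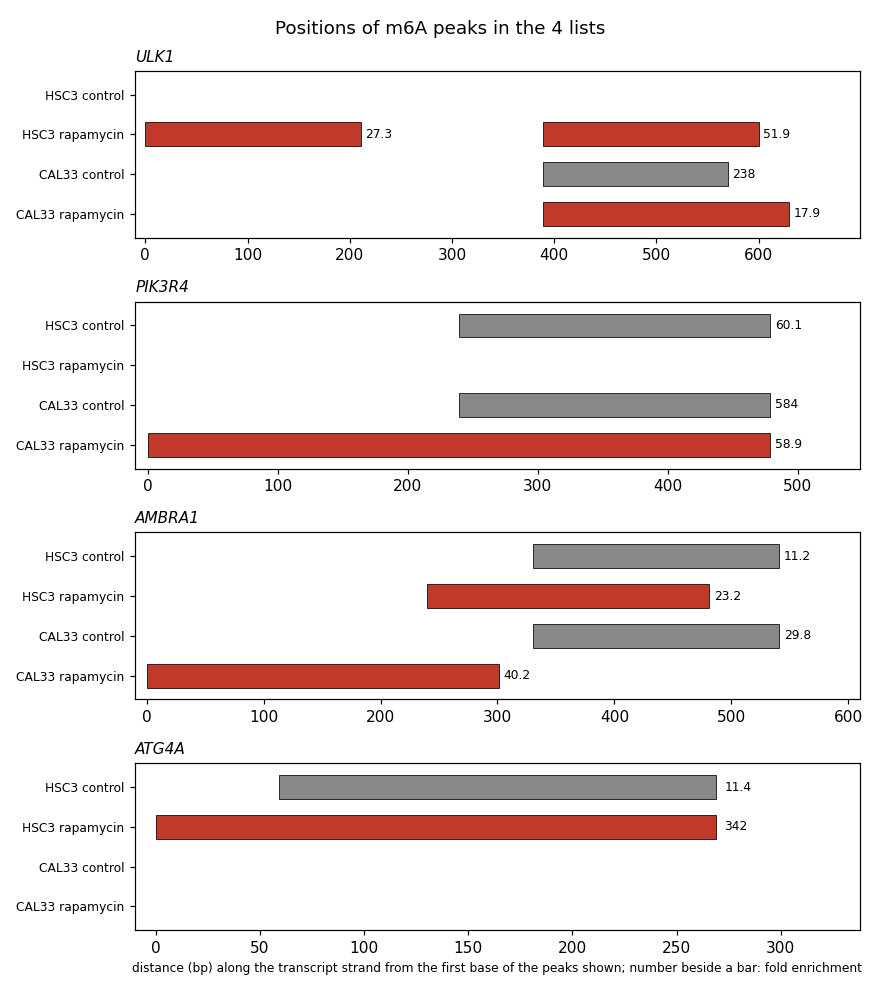
Position of member peaks along *ULK1*, *PIK3R4*, the 3′ end cluster of *AMBRA1*, and *ATG4A*, in bases from the first peak shown, with 1 row per line and treatment and the fold enrichment written beside each bar. Empty rows mark lists with no peak of that gene in the stretch drawn. The bars of *ULK1* start at 1 place in 3 lists, and *ATG4A* has peaks in HSC3 alone, at 11.4 in the control and 342 with rapamycin.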

How the data were processed

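The members and the gene lists were chosen with earlier results of these data known. The RNA-seq values deposited by the authors are raw counts of reads for each gene under Ensembl identifiers, with no normalization. The submitters' processing notes name hg38, cutadapt 2.5, HISAT2 2.1.0, featureCounts 1.6.3 and HOMER 4.10.4 without roles, and the count table's own name points to HTSeq, so the counter is not settled. Libraries were made with a stranded mRNA kit, and the use of strand in counting is not given in the sources used here. Of MeRIP-seq, 1 list of peaks per line and treatment was deposited by the authors, with a fold enrichment as a ratio and a score column that holds the p-value. The deposited log10 p-value and log10 false discovery rate columns were read for thresholds and for the false discovery rates given above. Peaks were called on each pair of libraries separately, and peak lists were joined to line and treatment by their names. Coordinates are counted from 1. No per-sample column was left out (0 unused).

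Symbols were matched with the gene name table. Tests used edgeR 4.0.16 and limma 3.58.1 in R 4.3.3: filterByExpr kept 15826 genes, TMM scaled the libraries, and the treatments were compared by the robust quasi-likelihood test with Benjamini-Hochberg adjustment over all genes at 0.05. The fit has no block, since the study's methods state none, and a second fit with the replicate number as a term (the replicate block) stands beside it. Log2 fold changes in the report are from the blocked fit unless given within a number. The scripts were tested on simulated counts. Alternatives were DESeq2 1.42.0, other normalizations and filters, libraries left out, and stricter peak thresholds. Wilson intervals (95%) and overlaps were computed in Python 3.11.15. Totals ranged from 18492273 to 23763098 counts, so that 3 counts equal 0.126 to 0.162 CPM.

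Whether the numbers pair the libraries was checked: differences between number 1 and number 2 correlated between treatments at r = 0.90 across 15826 genes, which are not independent replicates, and same-numbered libraries correlated at 0.97 and 0.96, other pairs at 0.76 to 0.81. The pairing comes from the numbering of MeRIP-seq, where a number marks a line, and goes against the RNA-seq line labels. Common dispersion fell from 0.636 to 0.0610 when the block was added.

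All members are named by step. Full statistics are given for members past the threshold with or without the block and for *MAP1LC3B* and *SQSTM1*, peaks for members in at least 3 lists, and values of other autophagy genes only where past the threshold with the block. Protein sequences of the ATG8 family and peak sequences were not used here.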

Additional observations from a re-analysis of the deposited data

How the results depend on the processing

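The count of calls depended on the replicate block and the tool. With the replicate block, 1290 genes, 6 members and 7 other autophagy genes passed. The blocked counts were 1165, 6 and 7 with upper-quartile normalization, 1045, 6 and 6 with library totals, 1236, 6 and 7 with at least 10 counts in every library, and 818, 7 and 5 in DESeq2, where the seventh member was *ATG13*. DESeq2 without the block called 42 genes, 2 members and 0 other autophagy genes, with no adjusted p for 6750 genes, 3 members among them. With a single library left out and no block, edgeR called 0 in each of the 3 counts, with 60 to 387 genes at an unadjusted p under 0.05. The lone library of an arm was then assumed to vary like the other arm. Leaving out both libraries of a number gives 1 against 1 and no test. The 6 members called with the block passed in each fit with the block. Peak counts and overlaps stayed within their intervals under stricter thresholds and other overlap rules. This is a weak check, since the intervals are wide. The cut on the false discovery rate could remove at most 1 member peak per list.

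Upper-quartile normalization moved the median log2 fold change of all genes from 0.059 to 0.13. The signs of several members turned, none of them called with the block, and the cause was not tested. *ATG2B*, at -0.0061 without the block, became 0.043 with the block, 0.073 with upper-quartile normalization, 0.0081 in DESeq2, 0.057 in DESeq2 with the block and 0.023 with at least 10 counts, and in blocked fits 0.12 with upper-quartile normalization, 0.046 with library totals and 0.069 with at least 10 counts. *ATG4D*, at -0.062, became 0.0079 with upper-quartile normalization and 0.0035 with the block as well. *ATG5*, at 0.013, became -0.034 with the block, -0.021 in DESeq2 with the block, -0.023 with no filter, and in blocked fits -0.031 with library totals and -0.0082 with at least 10 counts. Leaving out a replicate number, the values without replicate 1 and without replicate 2 were 0.32 and -0.65 for *UVRAG*, 0.083 and -0.33 for *AMBRA1*, 0.17 and -0.43 for *ATG9A*, -0.25 and 0.18 for *ATG5*, -0.011 and 0.53 for *EPG5*, 0.30 and -0.043 for *PIK3C3*, -0.25 and 0.34 for *ATG2B*, 0.41 and -0.0013 for *WIPI2*, and 0.94 and -0.031 for *GABARAPL2*. With a single library left out and no block, signs turned for *AMBRA1*, *ATG101*, *ATG2B*, *ATG3*, *ATG4D*, *ATG5*, *ATG9A*, *EPG5*, *GABARAP*, *MAP1LC3B*, *PIK3C3*, *PIK3R4* and *UVRAG*. Among them, *MAP1LC3B* went from 0.69 to -0.52 and *EPG5* from 0.38 to -0.69 without the rapamycin library numbered 1, *PIK3R4* from -0.66 to 0.21 without the control numbered 2, and *GABARAP* from -1.32 to 0.55 without the control numbered 1. With 2 libraries per group and unknown depth in MeRIP-seq, small differences between members could not be resolved.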
